A study of Mus musculus with 9 samples.

Results

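The 10 genes described here encode proteins that airway epithelium secretes or uses to make and move its secretions: Bpifa1, Bpifb1, Muc5b, Muc5ac, Reg3g, Gp2, A2ml1, Pigr, Lypd2 and Agr2. They were taken by name from a table of 21930 protein-coding genes, and all 10 were found. They had been picked as airway secretory genes that read lower after LPS and higher with RSBD in these same libraries. Their levels and fold changes are therefore a description, and no test is drawn from them. All 10 passed the filter on low counts, Agr2 through the LPS plus RSBD and control libraries, since its LPS libraries held 8, 7 and 12 counts.

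Lung RNA was sequenced from 9 mice in 3 groups of 3. The first group received lipopolysaccharide (LPS), an outer membrane component of Gram-negative bacteria, into the trachea at 2 mg/kg and then, by gavage, a decoction of the herbal prescription Renshen Baidu Powder (RSBD). The second received LPS at the same dose and vehicle by gavage. The control group received sterile saline in place of LPS and is recorded with the same gavage schedule. All animals are labelled male C57BL/6 mice of 6 to 8 weeks and were anaesthetised with tribromoethanol. Gavage started 24 h after instillation and lungs were taken on day 5, so the labelled 5 daily doses fit only if the last fell on the day of collection, and the number received is unclear. LPS in the trachea is a model of acute lung injury in healthy young animals of a single strain, and the tissue sequenced was lung, in which airway epithelium is 1 of many cell types.

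Total counts per library ranged from 26959662 to 36113905. The 3 libraries labelled control held 6 to 9 counts over genes of the Y chromosome and the 6 others 7511 to 10918, although every animal is labelled male. Each comparison with control is thus also one between libraries without and with such transcripts, and the 2 cannot be told apart. LPS plus RSBD against LPS does not involve the control libraries, apart from the shared estimate of spread. In the main edgeR fit, p-values weigh a group difference against the spread between animals within groups. That spread was estimated from all 9 libraries together, with 3 animals per group. Levels are given as CPM, counts scaled to library size, unless stated otherwise.

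Airway mucus is a gel of secreted mucins carried out of the lung by cilia. In the mouse, Muc5b is the mucin made by resting airways and needed for clearance, and Muc5ac is the one raised in allergic and parasite-driven mucous metaplasia. Club, goblet and submucosal gland cells release alongside them bactericidal and lipid-binding proteins, protease inhibitors and lectins, and carry immunoglobulin A across the epithelium. In a whole-lung sample, fewer cells of a type and less RNA per cell cannot be told apart.

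The members lie on 6 mouse chromosomes (GRCm38). Bpifa1 (chr2:154142880-154149219, plus strand) and Bpifb1 (chr2:154190818-154220369, plus strand) stand 41598 bases apart in the BPI fold cluster, and Muc5ac (chr7:141788972-141819231, plus strand) ends 19838 bases before Muc5b (chr7:141839070-141873084, plus strand). Reg3g (chr6:78466269-78468872) and A2ml1 (chr6:128539821-128581608) lie on the minus strand of chromosome 6, Gp2 (chr7:119442537-119459285) on the minus strand of chromosome 7 and Lypd2 (chr15:74732247-74734329) on the minus strand of chromosome 15. Pigr (chr1:130826684-130852249) and Agr2 (chr12:35992907-36004087) are on plus strands. The table of promoters held 7 of the 10, without Muc5b, Muc5ac and Lypd2. The 100 bases before the RefSeq start of each of the 7 are shown (GRCm38.p6, read 5′ to 3′ on the gene's strand). These genes were alike in direction and differ in whether the exact letters TATAAA, a form of the TATA box, are present. Capitals mark TATAAA. Other TATA-like stretches were not searched for, so genes without capitals may hold one.
Bpifa1: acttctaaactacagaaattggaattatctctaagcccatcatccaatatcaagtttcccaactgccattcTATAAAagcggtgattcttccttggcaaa
Reg3g: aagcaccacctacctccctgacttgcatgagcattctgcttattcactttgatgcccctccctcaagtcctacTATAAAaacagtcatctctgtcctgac
Gp2: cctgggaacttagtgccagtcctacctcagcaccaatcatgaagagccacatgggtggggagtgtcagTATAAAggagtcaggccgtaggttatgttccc
A2ml1: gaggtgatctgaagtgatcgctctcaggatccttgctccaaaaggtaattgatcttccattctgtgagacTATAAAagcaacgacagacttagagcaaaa
Bpifb1: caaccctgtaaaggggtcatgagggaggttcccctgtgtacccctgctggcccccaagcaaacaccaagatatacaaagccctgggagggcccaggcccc
Agr2: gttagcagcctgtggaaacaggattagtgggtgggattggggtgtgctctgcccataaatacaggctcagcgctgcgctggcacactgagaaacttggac
Pigr: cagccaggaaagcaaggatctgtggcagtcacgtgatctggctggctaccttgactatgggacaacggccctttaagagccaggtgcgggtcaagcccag
These stretches are chr2:154142780-154142879 (plus) for Bpifa1, chr6:78468875-78468974 (minus) for Reg3g, chr7:119459273-119459372 (minus) for Gp2, chr6:128581607-128581706 (minus) for A2ml1, chr2:154190718-154190817 (plus) for Bpifb1, chr12:35992825-35992924 (plus) for Agr2 and chr1:130826584-130826683 (plus) for Pigr. TATAAA began 29 bases before the start of Bpifa1, 27 before Reg3g, 32 before Gp2 and 30 before A2ml1.

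Bpifa1, also called SPLUNC1, is an abundant surfactant-like protein of airway lining fluid that binds lipid and hinders bacterial films. Its level was 1002, 60.5 and 279 CPM in LPS plus RSBD libraries 1 to 3, 21, 32.3 and 14.0 CPM in LPS libraries 1 to 3, and 229, 551 and 432 CPM in control libraries 1 to 3. The LPS libraries lay below all others, and the LPS plus RSBD libraries spanned 16.6-fold. Group means were 447 ± 493 CPM with LPS plus RSBD, 22.4 ± 9.23 CPM with LPS and 404 ± 163 CPM in control (SD, n = 3 each). LPS against control gave a log2 fold change of −4.17 ± 0.90 (SE), which is 18.0-fold lower, and LPS plus RSBD against LPS gave 4.32 ± 0.91, which is 19.9-fold higher. The second value was 2.92 without LPS plus RSBD library 1 and 4.84 without library 2. Between LPS plus RSBD and control the log2 fold change was 0.15 ± 0.78, so the means of those groups differed by less than the SE. Bpifb1, the long relative of Bpifa1 in the same cluster, read 37.6, 28.6 and 33.2 CPM with LPS plus RSBD, 3.79, 4.64 and 5.34 CPM with LPS and 15.7, 69.6 and 38.5 CPM in control. It was the steadiest of the large movers with LPS plus RSBD, at 33.2 ± 4.53 CPM against 4.59 ± 0.778 CPM with LPS (SD, n = 3 each). Its log2 fold changes were −3.17 ± 0.47 for LPS against control, 2.85 ± 0.46 for LPS plus RSBD against LPS and −0.32 ± 0.42 for LPS plus RSBD against control.

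Muc5b, the gel-forming mucin of resting mouse airways, read 134, 91.9 and 97.4 CPM with LPS plus RSBD, 24.3, 12.4 and 18.1 CPM with LPS and 44.5, 124 and 123 CPM in control. No LPS library reached either other group, and control library 1 stood well below its fellows. The log2 fold change was −2.41 ± 0.40 for LPS against control and 2.56 ± 0.40 for LPS plus RSBD against LPS, and it was 0.15 ± 0.37 for LPS plus RSBD against control. Muc5ac, the inducible gel-forming mucin, was scarce throughout, with 171, 102 and 56 counts in LPS plus RSBD libraries, 36, 18 and 26 in LPS libraries and 31, 97 and 58 in control libraries. Those counts are 4.69, 3.29 and 2.04 CPM with LPS plus RSBD, 1.34, 0.588 and 0.945 CPM with LPS and 1.09, 3.09 and 2.06 CPM in control. LPS and control overlapped for Muc5ac, with a log2 fold change of −1.13 ± 0.47, while LPS plus RSBD lay above LPS in every library, with 1.81 ± 0.47. Its mean with LPS plus RSBD was 160.4% of the control mean, the highest percentage among the 10, at a log2 fold change of 0.68 ± 0.45 with overlapping groups. Per length of transcript, Muc5b averaged 12.4 TPM (length-scaled transcript levels) with LPS plus RSBD, 2.12 TPM with LPS and 12.0 TPM in control, and Muc5ac 0.530, 0.152 and 0.352 TPM in those groups. Muc5b was therefore the more abundant of the 2 mucins in all 3 groups. Agr2, an endoplasmic reticulum protein disulfide isomerase that gut mucin assembly requires in mice, was the rarest member by counts. It had 110, 21 and 31 counts with LPS plus RSBD, 8, 7 and 12 with LPS and 18, 78 and 89 in control, or 1.61 ± 1.24, 0.321 ± 0.106 and 2.09 ± 1.31 CPM in those groups (SD, n = 3 each). Groups did not overlap between LPS and either other group for Agr2, yet its log2 fold change for LPS plus RSBD against LPS, 2.33 ± 0.73, was 1.48 without LPS plus RSBD library 1. Against control the log2 fold change of Agr2 was −2.70 ± 0.73 with LPS and −0.37 ± 0.64 with LPS plus RSBD.

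**Figure D1:**
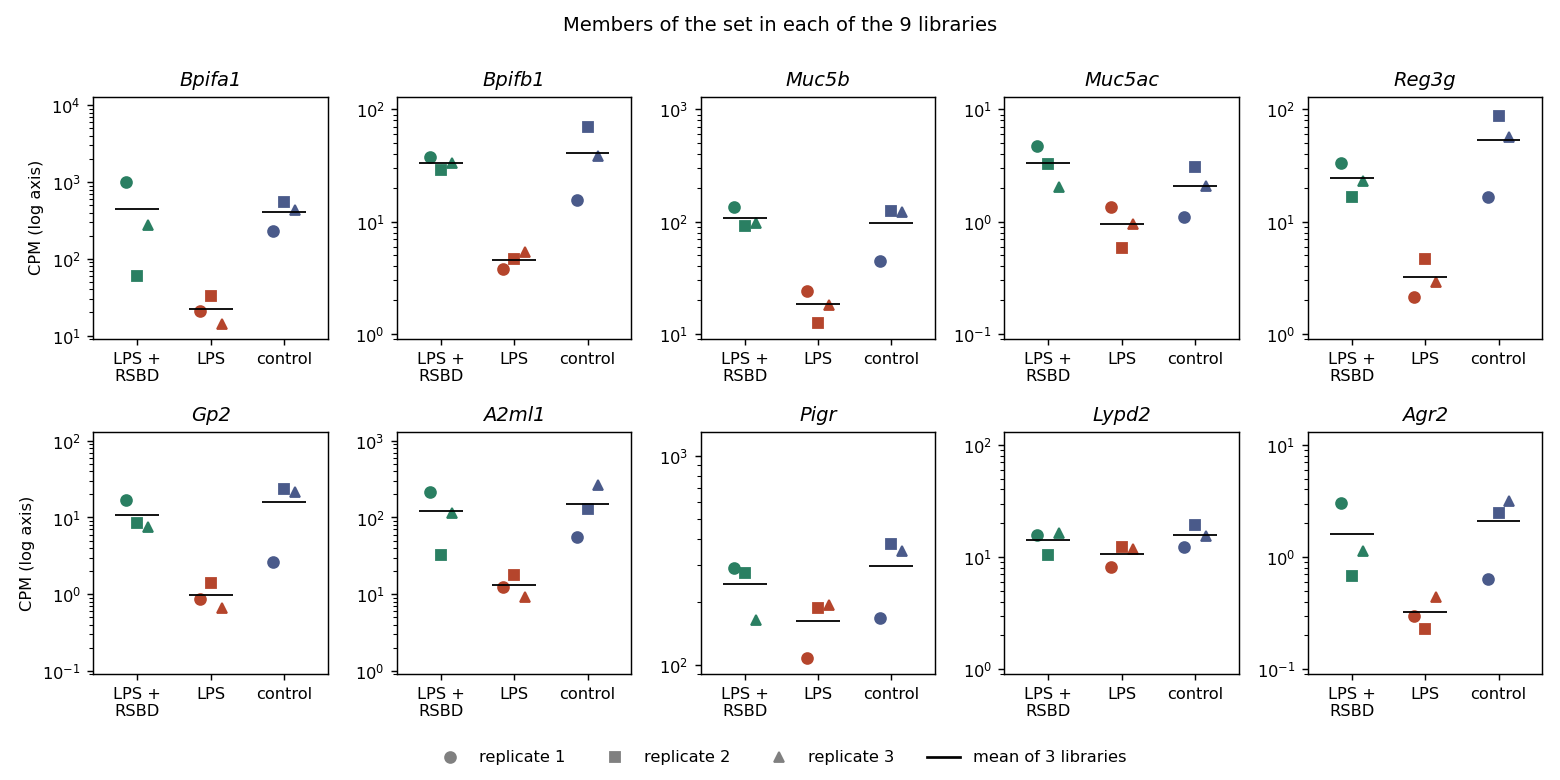
Level of each of the 10 genes in every library (CPM, log axis), by group, with group means. The LPS libraries lie below the other groups for 7 genes, control library 1 is the lowest control library for all 10, and Pigr and Lypd2 overlap among all groups.

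Reg3g is a C-type lectin that kills Gram-positive bacteria at gut and airway surfaces. It read 33.3, 16.7 and 23 CPM with LPS plus RSBD, 2.12, 4.64 and 2.91 CPM with LPS and 16.5, 88.3 and 56.6 CPM in control. The log2 fold change was −4.05 ± 0.61 for LPS against control and 2.91 ± 0.59 for LPS plus RSBD against LPS. The LPS plus RSBD mean, 24.3 ± 8.35 CPM, was 45.3% of the control mean of 53.8 ± 36 CPM (SD, n = 3 each), the lowest percentage of the 10, but the groups overlapped and the log2 fold change was −1.14 ± 0.52. Gp2, a glycoprotein of M cells and pancreas that binds fimbriated bacteria, read 16.7, 8.39 and 7.56 CPM with LPS plus RSBD, 0.854, 1.40 and 0.654 CPM with LPS and 2.6, 23.4 and 21.2 CPM in control. All LPS libraries were the lowest, and control library 1 lay closer to them than to the other control libraries, which makes the control range 8.99-fold. Gp2 held only 23, 43 and 18 counts in LPS libraries 1 to 3. Its log2 fold changes were −4.0 ± 0.78 for LPS against control, 3.47 ± 0.77 for LPS plus RSBD against LPS and −0.53 ± 0.65 for LPS plus RSBD against control. A2ml1, a secreted protease inhibitor of the alpha-2-macroglobulin family, read 217, 32.4 and 114 CPM with LPS plus RSBD, 12.3, 17.8 and 9.09 CPM with LPS and 56.3, 128 and 265 CPM in control. Every LPS library lay below both other groups, and LPS plus RSBD library 2 was the nearest to LPS, as for Bpifa1. The log2 fold change of A2ml1 was −3.52 ± 0.75 for LPS against control and 3.21 ± 0.74 for LPS plus RSBD against LPS. The second value was 2.48 without LPS plus RSBD library 1. For LPS plus RSBD against control it was −0.31 ± 0.67.

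Pigr, the receptor that carries dimeric IgA into the airway lumen, behaved unlike the members above. It read 289, 274 and 164 CPM with LPS plus RSBD, 107, 187 and 193 CPM with LPS and 167, 378 and 351 CPM in control, and the 3 groups overlapped. Its log2 fold changes were −0.88 ± 0.35 for LPS against control, 0.58 ± 0.35 for LPS plus RSBD against LPS and −0.30 ± 0.34 for LPS plus RSBD against control. Lypd2, a small protein with the Ly6 and PLAUR fold, read 15.8, 10.4 and 16.2 CPM with LPS plus RSBD, 8.14, 12.3 and 11.8 CPM with LPS and 12.3, 19.2 and 15.3 CPM in control. It had the smallest log2 fold changes of the set, −0.54 ± 0.23, 0.39 ± 0.23 and −0.14 ± 0.23 for the same 3 comparisons, with overlap in each. In TPM, Pigr at 70.9 and Lypd2 at 35.6 were the most abundant members with LPS, ahead of Bpifa1 at 34.7 ± 13.8, whereas Bpifa1 led with LPS plus RSBD at 699.9 ± 780.0 and in control at 675 TPM (SD where given, n = 3). Lypd2 and Bpifa1 in LPS did not differ beyond their spread.

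Counted over the set, LPS was called lower than control for 7 of 10 members (Bpifa1, Bpifb1, Muc5b, Reg3g, Gp2, A2ml1 and Agr2) by edgeR's quasi-likelihood test with Benjamini-Hochberg adjustment at 0.05 over all genes, where 8.63% of 15636 tested genes were called lower, 8.79% higher and 17.4% either way. The same 7 had LPS libraries all below control libraries, as had 19.5% of tested genes, and 18.6% had them all above. Since the genes were picked on this comparison, nothing is read from these shares. All 10 estimates were below 0, with a median of −2.93 against −0.01 over all genes. Leaving out 1 library changed the number called to 3 without LPS library 3, to 4 without LPS library 1, LPS library 2 or control library 3, to 6 without control library 2 and to 8 without control library 1. Bpifb1, Muc5b and Reg3g were among those called each time, and Pigr was the eighth without control library 1.

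With LPS plus RSBD against LPS, edgeR called 0 of the 10 members and 0 of 15636 genes (0% in either direction), the smallest adjusted p being 0.205. All 10 estimates were above 0, with a median log2 fold change of 2.71 against 0.01 over all genes, and 8 members, all but Pigr and Lypd2, had every LPS plus RSBD library above every LPS library, as had 7.18% of tested genes, and 5.46% had the reverse. At an unadjusted edgeR p under 0.05 there were 1473 genes, with 841 higher (5.38%), and 8 members. DESeq2 called 159 genes after adjustment, with 96 of 15628 higher (0.614%), and these held 7 members, all but Pigr, Lypd2 and Agr2. A limma fit of log2 TPM called 1 gene and no member, and an edgeR fit of the LPS plus RSBD and LPS libraries alone called 2 genes, of which 1 was a member. With control library 1 left out of the shared spread, 4 genes passed, among them Bpifb1, Muc5b and Gp2. The members were picked for this difference too, so these counts describe them and support nothing.

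Against control, LPS plus RSBD was called different for 0 of 10 members by edgeR, against 3.7% of tested genes (1.89% higher and 1.8% lower). At an unadjusted edgeR p under 0.05 there were also 0 members among 3555 genes, and DESeq2 and limma called 0. Every member overlapped between these groups, and 15.4% of tested genes had all LPS plus RSBD libraries above and 15% all below control. Since the members were picked as lower after LPS and higher with RSBD, nothing is read from this overlap or from the lack of calls. There were 3 estimates above and 7 below 0, with a median log2 fold change of −0.30. The LPS plus RSBD means ran from 45.3% (Reg3g) to 160.4% (Muc5ac) of control means, and the LPS means from 5.55% (Bpifa1) to 69.0% (Lypd2). The 3 comparisons share groups pairwise, so the values stand side by side and are not independent of each other. SEs ran from 0.23 to 0.78 log2 units in this comparison, and differences larger than the SE went uncalled, such as −1.14 ± 0.52 for Reg3g. With LPS plus RSBD against LPS, edgeR did not call Muc5b even at 2.56 ± 0.40. A missing call thus does not show equal levels.

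**Figure D2:**
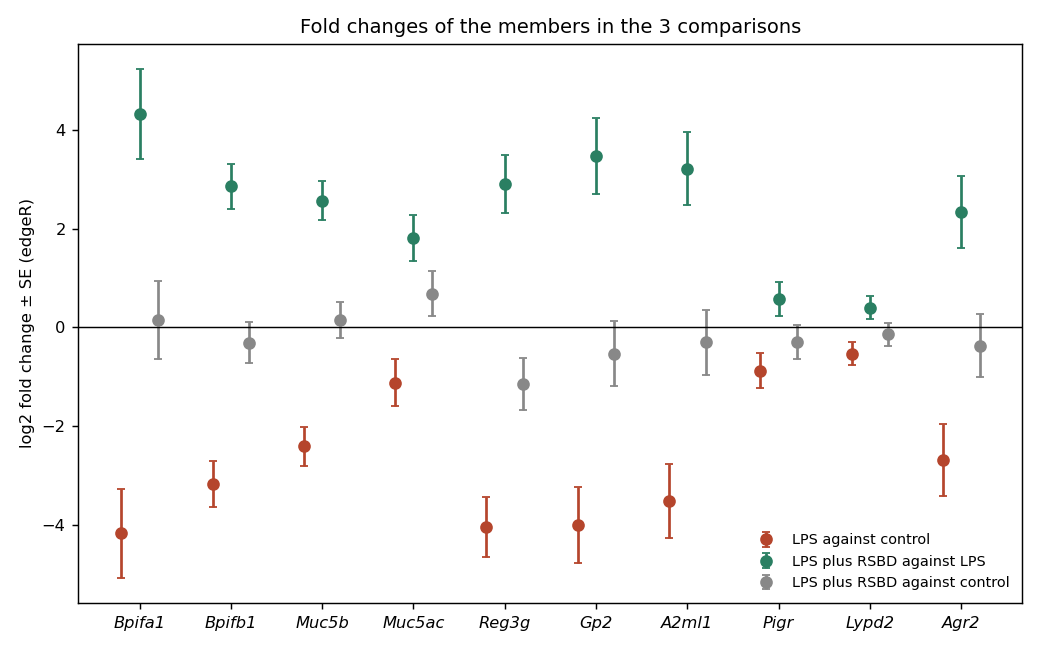
Log2 fold change of each gene with its SE for LPS plus RSBD against LPS, LPS against control and LPS plus RSBD against control. LPS against control runs from −4.17 to −0.54, LPS plus RSBD against LPS from 0.39 to 4.32, and LPS plus RSBD against control from −1.14 to 0.68.

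The members also varied together in part within groups. Over deviations from group means, the 45 pairs of members had a median Pearson r of 0.63. It ran from 0.07 (Muc5ac and Lypd2) to 0.93, with 8 pairs over 0.8. Neither these r values nor the library orders below were computed over all genes. Whether they set the members apart from other genes was not tested. LPS plus RSBD library 1 was the highest of its group for 9 of 10 members, all but Lypd2, and library 2 was the lowest for 7. Control library 1 was the lowest of its group for all 10, and control library 2 the highest for 8. The LPS libraries kept no such order, each being the highest for 2 to 5 members. The mean deviation of the 10 genes from their mean over the 9 libraries, in log2 CPM with a prior count of 2, was 1.41, 0.12 and 0.57 in LPS plus RSBD libraries 1 to 3, −1.67, −1.45 and −1.62 in LPS libraries and −0.18, 1.49 and 1.33 in control libraries. LPS plus RSBD library 2 and control library 1 thus lay near the middle, and the LPS libraries together at the bottom. The 10 genes took 0.177, 0.0532 and 0.0732% of all counts in LPS plus RSBD libraries, 0.0181, 0.0268 and 0.0254% in LPS libraries and 0.0541, 0.141 and 0.132% in control libraries.

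**Figure D3:**
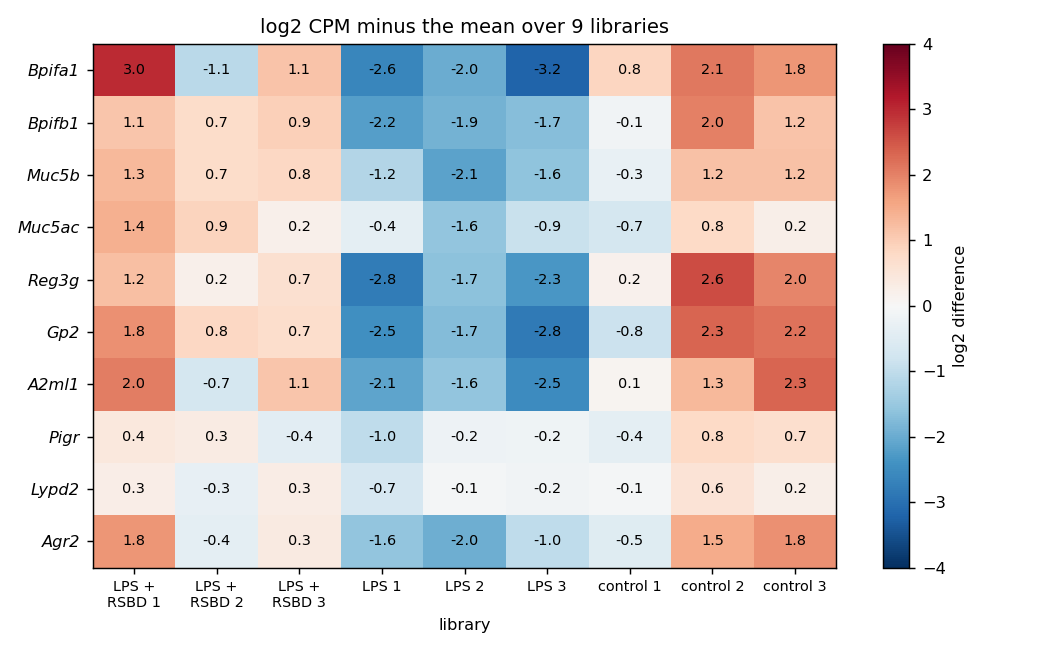
Log2 deviation of each gene from its mean over the 9 libraries, by library and group. Each cell prints the deviation, red for above and blue for below the mean. LPS plus RSBD library 1 and control libraries 2 and 3 are mostly red, and the LPS libraries are blue.

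Markers of airway cell types moved in part with the same libraries. Krt5, a keratin of basal cells, read 2.88, 0.129 and 0.509 CPM with LPS plus RSBD, 0, 0.261 and 0 CPM with LPS and 0, 0.891 and 1.07 CPM in control, so that it was highest in LPS plus RSBD library 1 and at 0 in control library 1. The 15 basal and squamous genes summed to 14.7, 5.42 and 4.43 CPM with LPS plus RSBD, 2.64, 4.25 and 7.09 CPM with LPS and 4.61, 10.1 and 13.1 CPM in control. The 26 goblet and mucous genes summed to 769, 679 and 643 CPM with LPS plus RSBD, 461, 549 and 624 CPM with LPS and 719, 982 and 938 CPM in control, with no member among them, and no LPS library reached another group. Sums over 20 ciliated cell genes ran from 2881 to 3743 CPM with LPS plus RSBD, 2258 to 2942 CPM with LPS and 2933 to 3724 CPM in control. The 16 club cell genes summed to 33611, 32423 and 41728 CPM with LPS plus RSBD, 24279, 31733 and 36437 CPM with LPS and 46476, 37722.5 and 33775 CPM in control, and overlapped. Their sum was thus highest of the control libraries in library 1, where all 10 members were lowest. Most of that sum was the club cell marker Scgb1a1, at 37217, 28938.5 and 24849 CPM in control libraries 1 to 3. The order of the control sums is therefore largely that of 1 gene. The 12 serous gland genes summed to 993, 450 and 495 CPM with LPS plus RSBD, 865, 730 and 610 CPM with LPS and 437, 622 and 589 CPM in control. The goblet cell factors Spdef and Foxa3 were scarce, between 0.223 and 1.11 CPM in all libraries. Foxa3 averaged 0.645 CPM with LPS plus RSBD, 0.329 CPM with LPS and 0.713 CPM in control. Its log2 fold changes were −1.11 ± 0.58 for LPS against control and 0.95 ± 0.58 for LPS plus RSBD against LPS. Those of Spdef were −0.05 ± 0.50 and 0.27 ± 0.49. For both genes the groups overlapped and edgeR called neither comparison. The 15 cartilage genes summed to 42.6 to 58.2 CPM with LPS plus RSBD, 43.5 to 49.6 CPM with LPS and 32.2 to 52.5 CPM in control, while the defining markers Col2a1 and Acan had at most 10 and 2 counts per library, both in LPS plus RSBD library 1. Adipoq, the defining adipose marker, read 5.98, 1.16 and 1.02 CPM with LPS plus RSBD, 1.45, 0.392 and 0.363 CPM with LPS and 1.79, 2.29 and 0.854 CPM in control, highest in the library where 9 of 10 members were highest in their group. The 10 adipose genes summed to 159, 116 and 162 CPM with LPS plus RSBD, 157, 144 and 103 CPM with LPS and 147, 165 and 188 CPM in control, and overlapped. The part of these markers in the members' differences was not tested.

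The other mucous genes of the lung were read from a list of 26 goblet and mucous genes that leaves out the members. Of 22 tested, 7 fell and 0 rose in LPS against control by edgeR, with a median log2 fold change of −0.71 over the 22. The shares over all tested genes were 8.63% lower and 8.79% higher. Muc4, a membrane-bound mucin of airway cilia and surface, averaged 89.8 ± 24.5 CPM with LPS plus RSBD, 40.4 ± 11.2 CPM with LPS and 162 ± 56.0 CPM in control (SD, n = 3 each), and fell by 2.00 ± 0.31 on the log2 scale in LPS against control (edgeR adjusted p = 0.0062). Muc20, another membrane mucin, fell by 1.22 ± 0.23 (edgeR adjusted p = 0.00934), and both calls held with each library left out. Cftr, the chloride and bicarbonate channel that hydrates mucus, averaged 9.88 ± 1.15, 12.0 ± 2.56 and 28.6 ± 10.3 CPM in the same groups, and was lower than control both with LPS (log2 fold change −1.26 ± 0.24, edgeR adjusted p = 0.0114) and with LPS plus RSBD (−1.53 ± 0.25, edgeR adjusted p = 0.015). Its calls were lost without LPS library 2 (0.0535) and without LPS plus RSBD library 2 (0.0502). Its LPS plus RSBD mean was below its LPS mean, unlike those of the 10 members, with a log2 fold change of −0.28 ± 0.25 that edgeR did not call. Fcgbp, a large protein that binds into secreted mucus, averaged 4.76 ± 1.33, 2.02 ± 0.504 and 6.48 ± 2.24 CPM and fell by 1.68 ± 0.33 with LPS (edgeR adjusted p = 0.0117), a call lost without LPS library 2 (0.0524). The list's count was 3 without LPS library 2 and 4 without control library 3. With LPS plus RSBD against LPS none of the 22 was called by edgeR, 6 had an unadjusted p under 0.05 and DESeq2 called 2, and the log2 values for Muc4, Muc20 and Fcgbp were 1.15 ± 0.30, 0.92 ± 0.23 and 1.23 ± 0.33.

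Of 24 tested genes for other secreted airway defence proteins, 4 fell and 1 rose in LPS against control, with a median log2 fold change of −0.09. Over all tested genes, edgeR called 8.63% lower and 8.79% higher. Scgb3a1, a secretoglobin of airway secretory cells, averaged 380 ± 115 CPM with LPS plus RSBD, 106 ± 44.5 CPM with LPS and 362 ± 142 CPM in control (SD, n = 3 each), and fell by 1.77 ± 0.38 with LPS (edgeR adjusted p = 0.0173). That call was lost without control library 2 and without LPS library 3 (at most 0.0736), and LPS plus RSBD against LPS gave 1.84 ± 0.38 (edgeR adjusted p = 0.331). Chia1, a chitinase of lung and stomach, averaged 55.1 ± 6.04, 69.1 ± 13.3 and 99.8 ± 6.75 CPM in the same groups, and fell by 0.53 ± 0.13 with LPS (edgeR adjusted p = 0.0276, lost without any 1 of the control libraries or LPS library 1 or 2, at most 0.106). In contrast to the members, whose estimates were all above 0, every LPS plus RSBD library of Chia1 lay below every LPS library (−0.33 ± 0.13 on the log2 scale, edgeR adjusted p = 0.501), and it was the gene of this list called between LPS plus RSBD and control (−0.86 ± 0.14, edgeR adjusted p = 0.0143, lost without control library 3 or LPS plus RSBD library 2, at most 0.0555). Dmbt1, a scavenger glycoprotein that agglutinates bacteria, averaged 1.53 ± 1.63, 0.127 ± 0.082 and 2.29 ± 2.07 CPM in the same groups and was called lower with LPS (edgeR adjusted p = 0.039), but not without control library 2 or 3 or any 1 of the LPS libraries (at most 0.137). Camp, the cathelicidin carried by neutrophils, was the gene that rose, at 4.45 ± 3.05, 72.0 ± 30.6 and 10.3 ± 9.98 CPM, by 2.80 ± 0.76 with LPS (edgeR adjusted p = 0.0371), a call that was lost in 7 of the 9 fits without a library. Scgb1a1, the chief club cell product, was not called at 25937 ± 3611, 22761 ± 4745 and 30335 ± 6301 CPM, with −0.41 ± 0.21 on the log2 scale for LPS (edgeR adjusted p = 0.186). DESeq2 called 5 of the 24 higher and 5 lower. The edgeR count of 5 was 0 without control library 2, 1 without LPS library 2, 2 without control library 1, control library 3 or LPS library 3, and 3 without LPS library 1.

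Genes known to regulate mucous secretion (34 tested) had 4 genes that fell and 1 that rose in LPS against control, with a median log2 fold change of −0.16. Among all tested genes, edgeR called 8.63% lower and 8.79% higher in this comparison. The 1 that rose was the interleukin 17 receptor gene Il17ra, named after its values were seen (0.84 ± 0.25, edgeR adjusted p = 0.0470, lost in 7 of the 9 fits without a library, at most 0.209). Foxa1, a forkhead factor of airway epithelium, fell by 0.81 ± 0.13 in LPS against control (48.3 ± 6.83 CPM with LPS plus RSBD, 36.4 ± 3.91 CPM with LPS and 63.6 ± 7.79 CPM in control, SD, n = 3 each, edgeR adjusted p = 0.00628), and the call held with each library left out. Il33, an epithelial alarmin, fell by 1.24 ± 0.27 (edgeR adjusted p = 0.0186, lost without control library 2 or LPS library 2, at most 0.0582). Of 20 tested genes for protein folding in the secretory pathway, 6 fell and 0 rose, with a median of −0.32. Hyou1, an endoplasmic reticulum chaperone, averaged 134 ± 12.1 CPM with LPS plus RSBD, 118 ± 11.4 CPM with LPS and 205 ± 18.8 CPM in control, a fall of 0.80 ± 0.11 with LPS (edgeR adjusted p = 0.00323) that held with each library left out. Hyou1 also differed between LPS plus RSBD and control (−0.62, edgeR adjusted p = 0.0175), as did the co-chaperone Dnajc3 (−0.38, edgeR adjusted p = 0.0395). Without 1 library the Hyou1 call was lost 3 times (control 2, control 3 or LPS plus RSBD 1, at most 0.0709), and that of Dnajc3 7 times. The folding list's count with LPS was 2 without control library 2, control library 3 or LPS library 2, and that of the regulators was 1 without control library 2 or LPS library 2, 2 without control library 3 and 3 without LPS library 1.

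The cell type lists were read beside these, and beside the shares of all tested genes called in LPS against control, 8.63% lower and 8.79% higher. Of 20 tested ciliated cell genes, 11 fell and 0 rose in LPS against control, with a median log2 fold change of −0.81, the dynein Dnah9 by 0.90 ± 0.22 (edgeR adjusted p = 0.0267, lost without control library 2 or 3 or any 1 of the LPS libraries, at most 0.086). That count was 0 without control library 2, control library 3 or LPS library 2, 1 without LPS library 1 or 3 and 4 without LPS plus RSBD library 1. Of 15 tested club cell genes, 4 fell and 0 rose, with a median of −0.27, and the count was 0 without control library 2, 1 without LPS library 1 or 2, and 2 without control library 1, control library 3 or LPS plus RSBD library 1. The 7 tested basal and squamous genes had a median of −1.18 and the 11 tested IgA and plasma cell genes a median of −0.01, with no call by edgeR in either, 2 and 1 genes at an unadjusted p under 0.05, and 0 and 1 DESeq2 calls. The summed IgA and plasma cell genes ran from 2967 to 4077 CPM with LPS plus RSBD, 1471 to 3925 CPM with LPS and 2187 to 3080 CPM in control. Gp2 is also a marker of M cells. Of 12 tested M cell genes 1 rose, the chemokine Ccl9 (by 0.71 ± 0.20, edgeR adjusted p = 0.0414, lost in 6 of the 9 fits without a library, at most 0.126), and none fell. That count is near the share of all tested genes called higher. Spib, the factor that defines M cells and is also made by B cells, ran from 22.7 to 34.1, 19.1 to 24.7 and 19.9 to 37.1 CPM. With LPS plus RSBD against LPS, edgeR called no gene of any list, and DESeq2 called 2 goblet and mucous, 2 club cell, 1 ciliated cell, 1 serous gland and 1 adipose gene higher, 1 M cell gene lower, and 2 other secreted defence genes higher and 2 lower. Lists can share genes, such as Pglyrp1 in the M cell and other secreted defence lists. A gene can therefore be counted in more than 1 list. An unadjusted edgeR p was under 0.05 for 6 goblet and mucous, 5 club cell, 11 ciliated cell and 8 other secreted defence genes, and for 1473 of all 15636 tested genes. Median log2 fold changes were 0.34 for goblet and mucous, 0.57 for ciliated, 0.26 for club and 0.71 for basal and squamous genes, and −0.09 for other secreted defence genes. Lists of other tissues had medians of 0.91 for 8 tested adipose genes, 4 of them at an unadjusted edgeR p under 0.05, 0.84 for 4 tested thyroid and oesophagus genes and 0.27 for 6 tested cartilage genes.

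**Figure D4:**
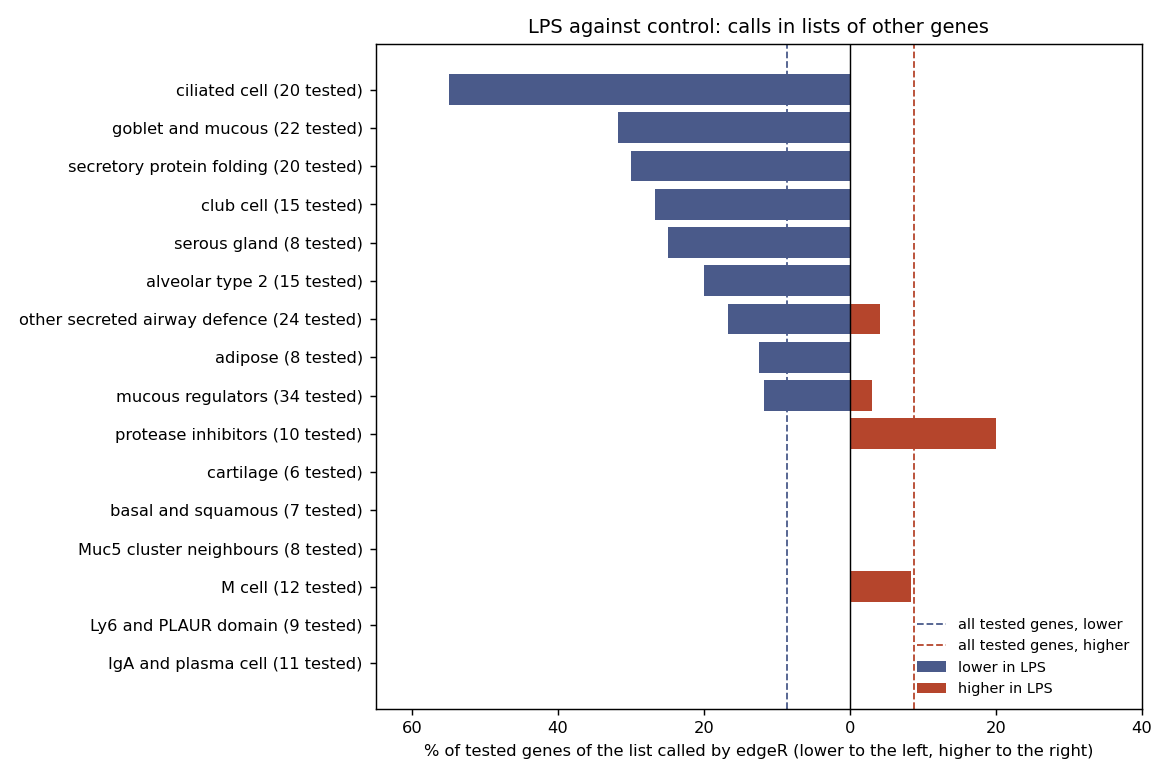
Share of the tested genes of each list that edgeR called in LPS against control (%, bars to the left for lower and to the right for higher in LPS), with dashed lines at the shares of all tested genes (8.63% lower, 8.79% higher); lists with under 5 tested genes are not drawn. Ciliated cell genes (11 of 20 lower) and goblet and mucous genes (7 of 22 lower) have the longest bars.

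The closest relatives and neighbours of the members were read in the same fit, which called 8.63% of all tested genes lower and 8.79% higher in LPS against control. Of 13 other BPI fold genes, 3 were tested, and 0 had an unadjusted edgeR p under 0.05 or a DESeq2 call in LPS against control. Next to Bpifa1 and Bpifb1, LPS against control gave log2 values of 0.43 for Bpifa2 (edgeR adjusted p = 0.659) and −0.01 for Bpifb5 (0.988), while Bpifa3, Bpifa5 and Bpifb9a held 23, 0 and 5 counts over all libraries. The 6 other regenerating lectins reached at most 0.106 CPM as a sum and were not tested. Around the Muc5 pair, LPS against control gave log2 values of −1.59 for Muc6 (edgeR adjusted p = 0.0948), −0.76 for Muc2 (0.494), 0.07 for Tollip (0.565) and −0.56 for Brsk2 (0.468), and for LPS plus RSBD against LPS the values were 0.32, −0.18, −0.09 and −0.63. None of these 4 was called by edgeR in either comparison. Of 10 tested protease inhibitors other than A2ml1, 2 rose, Wfdc1 (0.97 ± 0.21, edgeR adjusted p = 0.0147, lost without LPS library 2 at 0.0647) and Serpinb2 (2.39 ± 0.63, edgeR adjusted p = 0.0315, lost in 5 of the 9 fits without a library, at most 0.107), and 0 fell. Of 9 tested Ly6 and PLAUR genes other than Lypd2, 0 were called by edgeR or DESeq2 in LPS against control, and 0 had an unadjusted edgeR p under 0.05.

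Among 14385 other genes that averaged 1 CPM or more, the 5 whose log2 CPM followed the members' mean standardised level most closely over the 9 libraries were Tacr1, Serpina9, Slc39a9, Cldn2 and Garem1, with Pearson r of 0.98, 0.98, 0.97, 0.97 and 0.96. The r includes the differences among groups. Over deviations from group means it was 0.92, 0.94, 0.91, 0.90 and 0.88, and the 9 points share each library's depth and tissue piece. Tacr1, the substance P receptor, averaged 2.06 CPM with LPS plus RSBD, 0.393 CPM with LPS and 2.63 CPM in control. Serpina9, a serpin, averaged 7.77, 2.33 and 10.4 CPM in the same groups and Cldn2, a tight junction protein, 1.79, 0.534 and 1.85 CPM. Slc39a9, a zinc transporter, spanned far less, at 107, 91.5 and 110.0 CPM.

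Set against the promoters printed above, the 4 members with TATAAA had log2 fold changes of −4.17 (Bpifa1), −4.05 (Reg3g), −4.0 (Gp2) and −3.52 (A2ml1) for LPS against control, and the 3 without it −3.17 (Bpifb1), −2.70 (Agr2) and −0.88 (Pigr). With LPS plus RSBD against LPS the values were 4.32, 2.91, 3.47 and 3.21 for the first 4 genes in that order and 2.85, 2.33 and 0.58 for the others. The members were picked on these same comparisons, and Muc5b, Muc5ac and Lypd2 had no promoter to read. A link between the letters and the fold changes was not tested, and none is drawn from this order. Over 250 bases before to 50 after the start, on both strands, TATAAA was found in these 4 of 7 members and in 13.6% of 32851 promoters. Between 36 and 23 bases before the start, a window chosen after the positions were seen, it stood in the same 4 and in 1.84% of promoters. Other motifs were searched on both strands from 250 bases before to 50 after the start, and a member was counted if any of its promoters held the letters, Bpifb1 having a second RefSeq start whose promoter is not printed. The forkhead letters TGTTTAC were in 0 of 7 members (3.65% of promoters) and TATTTAC in 2 (3.04%), Bpifa1 and, at its second start only, Bpifb1. The STAT6 motif was in 0 (6.95%) and the NF-kB motif in 1 (5.56%). The XBP1 letters CCACG were in 0 (32.8%), the SPDEF letters GGATG in 5 (43.2%) and the NKX2-1 letters CTTGAG in 2 (15.9%). The counts rest on 7 genes and describe letters, not bound sites.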

How the data were processed

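Lung RNA of 9 mice in 3 groups was measured from strand-specific paired-end libraries. The submitters' processing notes list DESeq2 1.38.3, StringTie 2.2.0, HISAT2 2.2.1 and fastp 0.23.2 with the genome GRCm38 (mm10). Tool roles, the counting program and the annotation version were not given in the sources used here. Gene-level expected counts (estimated counts) were deposited by the authors as whole numbers, and none was rounded here. The deposited TPM values of the authors served for levels between genes and for alternatives. Each column was assigned to a library through the group and number in its name, and the LPS plus RSBD columns by elimination.

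The count model was edgeR 4.0.16 (R 4.3.3). The filterByExpr filter, at a minimum count of 10 and a minimum total of 15, kept 15636 genes. All 9 libraries were scaled by TMM and fitted in 1 robust quasi-likelihood model with group as the factor and 2-sided F tests. P-values were adjusted by Benjamini-Hochberg over all genes tested, with a threshold of 0.05. A called gene passed it. The median SE of log2 fold changes was 0.15. Same-numbered libraries did not pair, so no block was used. Alternatives were DESeq2 1.42.0, other scalings, no filter, limma 3.58.1 on log2 TPM, a replicate block, the compared groups alone and each library left out. Promoters are RefSeq sequences of GRCm38.p6, and all 10 members have the same coordinates in GENCODE M21. Protein sequences were not used here.

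The members and gene lists were chosen with earlier results of these data known. The text names all members, per list up to 4 called genes with the smallest p or else up to 2 of the highest mean CPM, the 5 most alike genes and the neighbours of paired members. Other list genes were named for their known role after values were seen.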

Additional observations from a re-analysis of the deposited data

How the results depend on the processing

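The same-direction fold change of all 10 members in LPS against control and in LPS plus RSBD against LPS was kept under all 17 alternatives. The members were picked for these directions in these same libraries, so the refits are no independent check of them. Sizes did change. With limma on log2(TPM + 1), Muc5ac went from −1.13 to −0.22 in LPS against control and from 1.81 to 0.40 in LPS plus RSBD against LPS. Gp2 went from −4.0 to −2.70 and from 3.47 to 2.45. For LPS plus RSBD against LPS the genes called, 0 in the edgeR fit, numbered 159 with DESeq2, 1 with limma on log2(TPM + 1) and on log2(TPM + 0.1), and 2 with the compared groups alone. The members called, also 0, were 7 with DESeq2 and 1 with the compared groups alone. For LPS plus RSBD against control, 578 genes (296 higher, 282 lower) became 1757 with DESeq2, 275 (90 higher, 185 lower) and 302 (100 higher, 202 lower) with limma at the pseudocounts of 1 and 0.1, and 240 with the replicate block. For LPS against control the genes called numbered 2723 in the edgeR fit (1374 higher, 1349 lower), 1828 with the replicate block, 3840 with DESeq2 and 1996 (696 higher, 1300 lower) with limma on log2(TPM + 1). Leaving out each library gave 786 to 2870 genes and 3 to 8 members for LPS against control. It gave 0 to 4 genes and 0 to 3 members for LPS plus RSBD against LPS, and 94 to 961 genes and 0 members for LPS plus RSBD against control. The extremes came without LPS library 2 and 1, without LPS library 3 and control library 1, without control library 1, and without control library 2 and LPS library 1. The causes were not tested. The replicate numbers shared by groups did not pair the libraries (correlations of −0.21 to 0.12 over 9 pairs, 1 over 0.1), and the fit with the block called 1828 genes and 5 members, 0 and 0, and 240 and 0 in the 3 comparisons. Depth limits Agr2, Muc5ac and Gp2 most, at 7 to 12, 18 to 36 and 18 to 43 counts per LPS library.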
